A study of Homo sapiens with 12 samples.

Results

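The comparison concerned the baseline transcriptomes of BON-1 and QGP-1, a pair of established human cell lines derived from pancreatic neuroendocrine tumors, as they stood without silencing of MUC1. Its members were the libraries that the labels assign to vehicle, 3 of BON-1/tet-MUC1shRNA and 3 of QGP-1/tet-MUC1shRNA cells, which are 6 of the 12 RNA-seq libraries of the study. All cells carried a tet-inducible short hairpin RNA against MUC1 after viral transduction and puromycin selection, and the vehicle cultures received 0.1% DMSO in place of the 500 ng/mL doxycycline (DOX) that turns the hairpin on. BON-1 cells were grown in DMEM/F-12 with 10% fetal bovine serum and 2% glutamine, and QGP-1 cells in RPMI 1640 with 10% fetal bovine serum and 1% glutamine. Each line was deposited in a table of its own, so cell line, medium and table cannot be told apart in any value below. Each line also stands for a single tumor, and nothing here separates what belongs to a line from what belongs to its tumor type.

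Neuroendocrine cells of the pancreas store peptide hormones and amines in dense-core granules and release them on a signal. Granins help to build the granules, convertases cut the prohormones inside them, and transcription factors of the endocrine lineage such as NEUROD1 and INSM1 set up the program. Tumors of these cells keep parts of that program and vary in hormone output, somatostatin receptors, and the epithelial or neuronal genes they also express.

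The vehicle libraries held 17726304 to 28484324 counts in BON-1 and 38224144 to 50525926 in QGP-1 over 28008 genes. Vehicle libraries of the same line were further apart than counting error allows, with a chi-square per gene of 5.92 to 24.8, so each was kept as a separate sample. Pairwise correlations of log2 CPM across genes lay between 0.981 and 0.994 within a group, between 0.970 and 0.985 for vehicle against DOX within a line, and between 0.743 and 0.757 for libraries of different lines. The first principal component of the 12 libraries held 88.7% of the variance and separated the lines. Nothing in the labels says that the 3 cultures of a group came from separate thaws or passages, so the p-values measure the spread between these cultures.

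The neuroendocrine and epithelial markers were checked first. Of the 11 neuroendocrine markers, CHGA, CHGB, SYP, ENO2, INSM1, SCG2, SCG3, SCG5, PCSK1 and CPE had counts in every library of both lines, whereas NCAM1 stood at 0.0696, 0 and 0.111 CPM in the BON-1 libraries against 65.8, 61.2 and 58.4 in QGP-1. NCAM1, a neural adhesion molecule, was near the floor in BON-1, so this marker of the cell type is all but absent from that line. In bulk RNA fewer expressing cells and less RNA per cell cannot be told apart, here and below. EPCAM, KRT8, KRT18 and CDH1, which mark epithelial cells, were high in all 6 libraries, with KRT18 in QGP-1 the lowest at 377, 342 and 326 CPM. For the markers of other cell types, 4 of 10 fibroblast, 5 of 10 endothelial and 2 of 10 leukocyte genes passed the filter. Their summed levels were 12.99 to 16.4, 41.2 to 47.96 and 26.2 to 28.7 CPM in BON-1. In QGP-1 the sums were 3.33 to 5.18, 14.2 to 17.7 and 10.9 to 13.3 CPM. KDR, a receptor for vascular endothelial growth factor, and CD68, a lysosomal protein, made up most of the BON-1 sums for the endothelial and leukocyte lists, at 33.9 and 25.03 CPM on average. Of the other endothelial genes that passed the filter, VWF and CLDN5 were called higher in BON-1, at log2 fold changes of 3.37 and 4.41. PECAM1 and EGFL7 were not called, at −0.65 and −0.88. LYZ, lysozyme, made up most of the QGP-1 sum for the leukocyte list, at 10.1, 11.8 and 11.8 CPM. The endothelial genes CDH5, TIE1 and EMCN and the leukocyte genes PTPRC, CD3E, CD3D and MS4A1 averaged under 0.1 CPM in both lines.

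MUC1, the target of the hairpin, lies at chr1:155185824-155192915 on GRCh38.p14 and encodes a transmembrane mucin. Raw counts with vehicle were 580, 467 and 281 in BON-1 and 274, 251 and 281 in QGP-1, which gave 20.2, 20.7 and 15.5 CPM against 7.27, 5.91 and 5.81 CPM. All 3 BON-1 libraries were above all 3 QGP-1 libraries, and the difference passed the test (log2 fold change 1.58, SE 0.15, adjusted p = 4.73e-09 by edgeR's quasi-likelihood test, where a positive log2 fold change is higher in BON-1). The paper, by qRT-PCR, found MUC1-C transcripts at comparable levels in both lines. That is another assay, in cells not described as carrying the hairpin, and why the results differ was not tested.

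Of 15835 genes that passed the filter on low counts, 3498 were higher in BON-1 and 2930 were higher in QGP-1 at an adjusted p below 0.05 and a change of at least 2-fold (edgeR's quasi-likelihood test). These calls were 40.6% of all genes tested, 22.1% higher in BON-1 and 18.5% higher in QGP-1, and the counts of the gene groups below are to be read against those shares. Without a minimum fold, 12267 genes or 77.5% passed the adjusted p, 6245 higher in BON-1 and 6022 higher in QGP-1. In 79.3% of the genes tested the CPM values of the 2 lines did not overlap. The median log2 fold change over all genes was 0.03, a centre that depends on the scaling, and the median absolute log2 fold change was 0.79. At the far end, 739 genes were at least 32-fold higher in BON-1 and 653 at least 32-fold higher in QGP-1. DESeq2 called 3792 and 3147 genes at the same thresholds. On the deposited TPM values a limma test called 6566 genes higher in BON-1 and 368 higher in QGP-1, where the median over all genes was 1.11. The noncoding RNAs RN7SK, RN7SL1 and RN7SL2 held 50.9% to 65.6% of the TPM in BON-1 and 78.8% to 80.3% in QGP-1, against 1.35% to 2.39% and 5.37% to 6.38% of the raw counts.

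**Figure D1:**
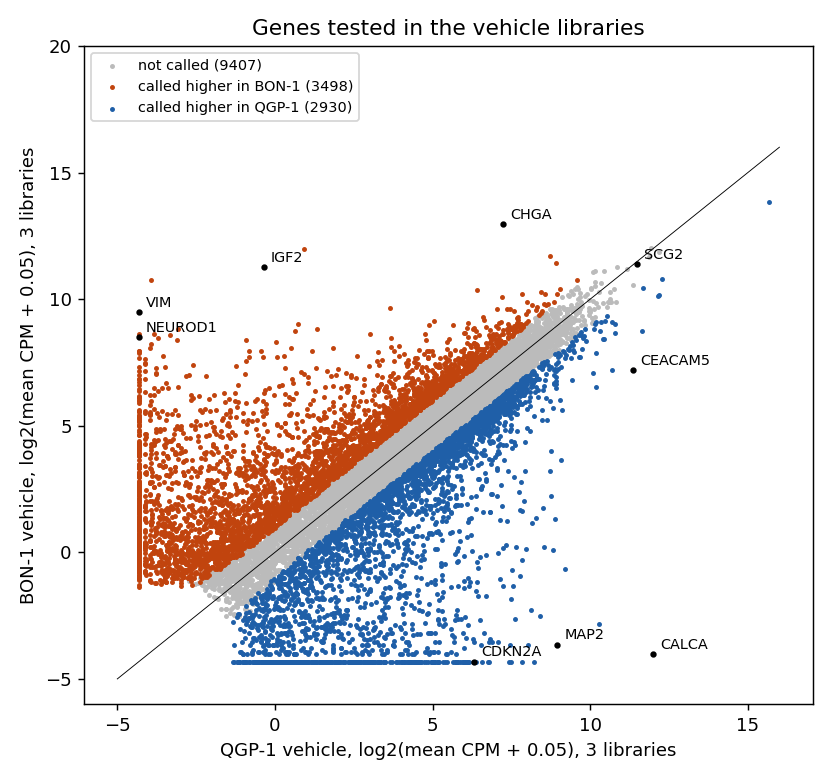
Mean level of each of the 15835 genes tested, as log2(CPM + 0.05) over 3 libraries, in QGP-1 (horizontal) and BON-1 (vertical) with vehicle. Orange points are the 3498 genes called higher in BON-1, blue points the 2930 called higher in QGP-1, grey points the 9407 not called, the line marks equal levels, and the strips of points at the left and lower edges are genes with 0 counts in 1 line.

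A sizeable set of genes was read in one line and not in the other. There were 96 genes with 0 counts in all 3 QGP-1 libraries and at least 5 CPM in each BON-1 library, and 111 with the reverse pattern. With 0 counts in a line only a lower bound of the fold can be given, and it was set against 3 counts over the 3 libraries of that line together. The 10 genes that led the BON-1 side were VIM, INA, NEUROD1, APOB, LINC01419, HIST1H1D, DPP4, TSPYL5, IGFBP3 and PARP14, and all except APOB had 0 counts in QGP-1. VIM, the intermediate filament protein vimentin of mesenchymal cells, stood at 806, 581 and 767 CPM in BON-1 and was at least 30754-fold higher than in QGP-1. INA encodes a neuronal intermediate filament protein, and its levels in BON-1 were 435, 359 and 399 CPM, at least 17047-fold higher. APOB, the structural protein of lipoprotein particles made by liver and intestine, was at 1803, 1692 and 1692 CPM in BON-1 and had 2 counts in a single QGP-1 library, a ratio of 111113-fold (95% Poisson interval 30759 to 917495). DPP4, a membrane peptidase that cuts incretin hormones, was at 253, 211 and 243 CPM and at least 10099-fold higher. IGFBP3 is a secreted binding protein for insulin-like growth factors, at 162, 173 and 147 CPM in BON-1 and at least 6876-fold higher. HIST1H1D belongs to a multigene histone family whose reads can be shared between copies, so its value is less certain.

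The genes that led the QGP-1 side included CALCA, GUCY1A3, GUCY1B3, KLHL9, GAP43, CDH2, FUT9, PKIA and TENM3. CALCA, which encodes calcitonin and the calcitonin gene-related peptide, had 4158, 3744 and 4224 CPM in QGP-1 and 1 count in 1 BON-1 library, a ratio of 280511-fold (95% Poisson interval 50346 to 11079600). The other 8 of these genes had 0 counts in BON-1. GUCY1A3 and GUCY1B3 encode the subunits of soluble guanylate cyclase, the receptor of nitric oxide, and were at least 6849-fold and at least 5340.2-fold higher in QGP-1, at 298, 279 and 311 CPM and 216, 222 and 254 CPM. GAP43, a protein of growing axons, was at 159, 167 and 193 CPM in QGP-1 and at least 4002-fold higher. CDH2, the neural and mesenchymal cadherin, was at 107, 109 and 118 CPM and at least 2579-fold higher.

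Of the 7 granins, 1 was higher in BON-1, 3 were higher in QGP-1 and 3 were not called. CHGA, the chromogranin that is measured in blood as a neuroendocrine tumor marker, was at 9147, 6528 and 8402 CPM in BON-1 and 157, 151 and 144 in QGP-1 (log2 fold change 5.74, SE 0.13, adjusted p = 3.52e-19 by edgeR's quasi-likelihood test). By deposited TPM, which corrects for length, CHGA ranked 17 to 30 of 25540 genes in the BON-1 libraries and 1882 to 2128 in the QGP-1 libraries. SCG2, CHGB and SCG3 differed less than 2-fold between the lines. SCG2, the precursor of secretoneurin, was at 2774, 2584 and 2662 CPM in BON-1 and 2786, 2569.6 and 3161 in QGP-1, with overlapping values (log2 fold change −0.09, SE 0.09, adjusted p = 0.369 by edgeR's quasi-likelihood test). CHGB was at 555 ± 50.02 CPM in BON-1 and 308 ± 8.23 in QGP-1 (SD, n = 3), and SCG3 at 921 ± 61.5 and 1173 ± 96.7, both within a 2-fold difference. CHGB did not overlap between the lines (adjusted p = 2.54e-09 by edgeR's quasi-likelihood test). Without a minimum fold, 6 of the 7 granins passed the adjusted p. SCG5, the chaperone 7B2 that the convertase encoded by PCSK2 needs to mature, went the other way from CHGA, at 4.39, 4.34 and 4.97 CPM in BON-1 and 133, 119.7 and 143 in QGP-1 (log2 fold change −4.86, SE 0.11, adjusted p = 3.03e-19 by edgeR's quasi-likelihood test). PCSK1N, an inhibitor of the convertase encoded by PCSK1, was also higher in QGP-1, at 33.8 ± 5.499 CPM against 6.17 ± 1.11 (SD, n = 3).

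Among the 10 genes of prohormone processing, 3 were higher in BON-1 and 3 in QGP-1. PCSK2, which cuts proglucagon and other precursors in endocrine granules, stood at 0.801, 1.64 and 0.387 CPM in BON-1 and 139, 139 and 126 CPM in QGP-1 (log2 fold change −7.12, SE 0.18, adjusted p = 2.58e-18 by edgeR's quasi-likelihood test). PCSK1, the other granule convertase, was present in both lines, at 549 ± 35.001 CPM in BON-1 and 1642 ± 80.4 in QGP-1 (SD, n = 3), and was called higher in QGP-1. PCSK6 and PCSK5, convertases of the constitutive secretory route and cell surface, were higher in BON-1, where PCSK6 was at 52.6, 49.8 and 46.6 CPM against 0.239, 0.377 and 0.0621. The trimming enzyme carboxypeptidase E (CPE) and the amidating enzyme PAM did not reach the 2-fold threshold, at 807 ± 58.02 against 993 ± 31.02 CPM and 2157 ± 160.3 against 1086 ± 57.7 CPM (SD, n = 3).

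**Figure D2:**
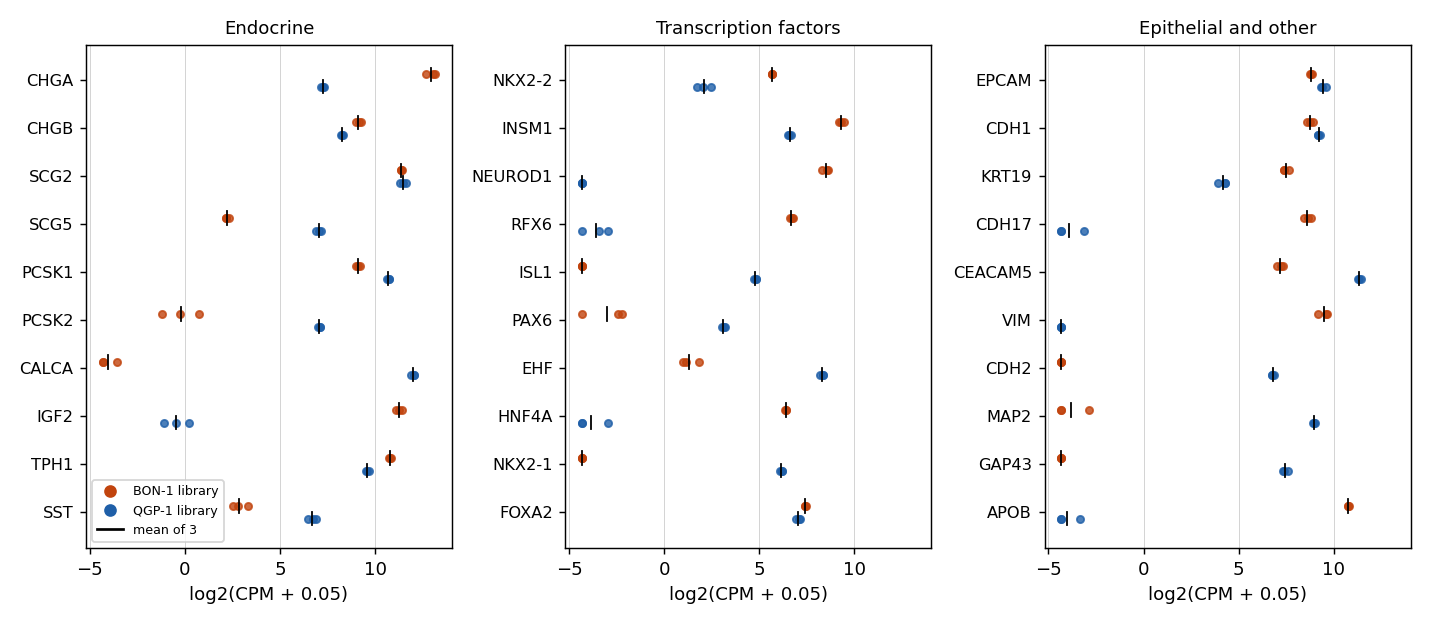
Levels of 30 identity genes in each vehicle library, as log2(CPM + 0.05), for BON-1 (orange, 3 libraries) and QGP-1 (blue, 3 libraries), with the mean of each line as a black tick. SCG2 overlaps between the lines, while CALCA, NEUROD1, HNF4A, VIM and MAP2 sit near the left edge in 1 line and far to the right in the other.

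The hormone output of the lines, read as mRNA, was different in kind. Of 40 peptide hormone genes 17 passed the filter, 7 of them higher in BON-1 and 6 higher in QGP-1. IGF2, insulin-like growth factor 2, was at 2676, 2203 and 2462 CPM against 0.424, 1.11 and 0.662 in QGP-1 (log2 fold change 11.69, SE 0.18, adjusted p = 1.43e-21 by edgeR's quasi-likelihood test), and its reads may be shared with overlapping annotated genes. ADCYAP1, which encodes the neuropeptide PACAP, was at 97.7, 92.8 and 100.2 CPM in BON-1 and at 0 counts in QGP-1, at least 4151-fold higher. In QGP-1 the calcitonin gene CALCA ranked 12 to 15 by TPM within the libraries. SST, somatostatin, which inhibits hormone release, was at 105, 117 and 87.5 CPM in QGP-1 and 9.75, 5.62 and 6.91 in BON-1 (log2 fold change −3.77, SE 0.15, adjusted p = 3.51e-15 by edgeR's quasi-likelihood test). UCN3, a peptide of the corticotropin-releasing family made by beta cells, was at 31.96, 31.3 and 33.04 CPM in QGP-1 and at 0 counts in BON-1, at least 743-fold higher in QGP-1. NTS, neurotensin, was at 656, 964 and 837 CPM in BON-1 and 489, 542 and 661 in QGP-1, with overlapping values and no call. INS had 0 counts in all 6 libraries, and GCG had 7, 0 and 1 counts in the BON-1 libraries and 0 in QGP-1. A total of 3 counts over a line, the most that 0 counts allow, corresponds to 0.0432 CPM in BON-1 and 0.0233 CPM in QGP-1, so insulin mRNA was not detectable at this depth. TAC1, the substance P precursor, was at 0 counts in BON-1 and 0.371, 0.941 and 0.828 CPM in QGP-1, at least 16.5-fold higher there.

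The serotonin synthesis genes TPH1 and DDC were read in both lines. TPH1, tryptophan hydroxylase of peripheral serotonin synthesis, was at 1821, 1697 and 1739 CPM in BON-1 and 757, 733 and 822 in QGP-1 (log2 fold change 1.19, SE 0.08, adjusted p = 1.64e-11 by edgeR's quasi-likelihood test). DDC, the aromatic amino acid decarboxylase of the next step, was at 85.5 ± 3.97 CPM against 47.4 ± 1.34 (SD, n = 3) and stayed under the 2-fold threshold. SLC18A1, the vesicular monoamine transporter VMAT1, was at 37.6, 30.1 and 35.3 CPM in BON-1 and 1.67, 0.894 and 0.993 in QGP-1 (log2 fold change 4.87, SE 0.18, adjusted p = 1.41e-15 by edgeR's quasi-likelihood test), whereas SLC18A2, which encodes VMAT2, stayed below 1 CPM in every library and was the member called higher in QGP-1. In all, 5 of the 11 genes of monoamine synthesis and storage that passed the filter were higher in BON-1 and 1 was higher in QGP-1.

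Hormone receptors were mostly on the BON-1 side, with 7 of the 11 that passed the filter higher in BON-1 and the other 4 not called. The somatostatin receptors are the binding sites of octreotide and of radiolabelled analogs in the clinic. SSTR1 stood at 133, 114 and 117 CPM in BON-1 and 2.12, 1.98 and 1.94 in QGP-1 (log2 fold change 5.91, SE 0.11, adjusted p = 2.17e-20 by edgeR's quasi-likelihood test). SSTR2 was low in both lines, at 5.22, 5.09 and 5.69 CPM against 1.51, 0.989 and 1.696, and still called higher in BON-1 (log2 fold change 1.92, SE 0.25, adjusted p = 8.64e-07 by edgeR's quasi-likelihood test). SSTR5 was at 4.11 ± 0.581 CPM against 0.536 ± 0.134 (SD, n = 3) and was also called higher in BON-1, and SSTR3 did not pass the filter. NTSR1, the neurotensin receptor, was at 10.6, 9.83 and 12.5 CPM in BON-1 and 0, 0.0235 and 0.0621 in QGP-1.

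The endocrine transcription factors split evenly, with 11 of 27 higher in BON-1, 11 higher in QGP-1 and 5 not called. NEUROD1, a differentiation factor of islet cells, was at 397, 311 and 373 CPM in BON-1 and had 0 counts in QGP-1, at least 15431-fold higher. INSM1, a zinc-finger factor used as a neuroendocrine marker, was at 688, 579 and 629 CPM against 92.6, 92.5 and 103 (log2 fold change 2.72, SE 0.08, adjusted p = 4.48e-17 by edgeR's quasi-likelihood test). RFX6, which acts in islet development, was at 108, 96.2 and 104 CPM in BON-1 against 0.0796, 0 and 0.0414 in QGP-1. FEV, the factor of serotonin-producing cells, was at 19.5, 20.5 and 19.5 CPM in BON-1 and 0 counts in QGP-1, and NKX2-2 and PDX1 were 11.96-fold and 2.81-fold higher in BON-1.

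QGP-1 carried a different set of factors. ISL1, a LIM-homeodomain factor of islet and neural cells, was at 27.8, 28.4 and 26.1 CPM in QGP-1 and 0 counts in BON-1, at least 634-fold higher. PAX6, which acts in islet cells and in the eye and brain, was at 8.96, 8.66 and 8.07 CPM in QGP-1 and had 0, 3 and 3 counts in the BON-1 libraries. NKX2-1, known from thyroid, lung and ventral forebrain, was at 72.1, 73.3 and 67.4 CPM in QGP-1 and had 0 counts in BON-1, at least 1640.5-fold higher. EHF, an epithelial ETS factor, was at 319.8, 296 and 326 CPM in QGP-1 and 2.12, 1.904 and 3.54 in BON-1 (log2 fold change −7.01, SE 0.13, adjusted p = 2.65e-20 by edgeR's quasi-likelihood test).

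Endodermal factors of liver, gut and pancreas were split 13 higher in BON-1 and 8 higher in QGP-1 of 30 that passed the filter. HNF4A, a nuclear receptor of hepatocytes and intestinal cells, was at 83.5, 82.998 and 82.7 CPM in BON-1 and had 3 counts over the QGP-1 libraries, a ratio of 3559-fold (95% Poisson interval 1218 to 17256). PTF1A, the acinar factor, was at 28.97, 22.01 and 23.04 CPM in BON-1 with 0 counts in QGP-1, at least 1057-fold higher. FOXA2 and SOX9 were expressed in both lines and were not called, at 170.3 ± 5.36 against 133 ± 11.5 CPM and 121 ± 5.69 against 72.8 ± 8.28 CPM (SD, n = 3).

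Markers of gut and liver that passed the filter were mostly on the BON-1 side. Of the 18 intestinal markers, 14 passed the filter, 11 of these were higher in BON-1 and the other 3 were not called. The median log2 fold change was 8.06, or 7.22 with genes at 0 counts set to their bound. On the TPM scale it was 3.30, or 2.19 relative to all genes. A gene can pass the filter through the libraries of 1 line alone, and 3 of these markers had 0 counts in QGP-1 only, so the median depends in part on which genes pass. CDH17, the liver-intestine cadherin, was at 438, 345 and 396 CPM in BON-1 and had 3 counts in 1 QGP-1 library, a ratio of 16844-fold (95% Poisson interval 5764 to 81680.1). SPINK4, a goblet cell peptide, was at 8.599, 11.6 and 11.5 CPM in BON-1 and 0 counts in QGP-1. Only 8 of the 18 hepatocyte markers passed, and 4 of the 18 had 0 counts in QGP-1 only, so the same limit holds. Of the 8 that passed, 6 were higher in BON-1, with APOB first. SERPINA1 was at 369.6, 299 and 329.5 CPM against 0.371, 0.353 and 0.703, and TTR at 11.8, 8.504 and 9.56 CPM against 0 counts. CPS1 and TAT were called higher in QGP-1 at 1.27 and 0.866 CPM on average, but the adjusted p of TAT was 0.141 without BON-1 replicate 2 and 0.067 by DESeq2. Of the 18 acinar markers 7 passed, and 4 of the 18 had 0 counts in QGP-1 only. Of the 7 that passed, 5 were higher in BON-1, among them SPINK1, a trypsin inhibitor, at 17.2, 21.8 and 15.3 CPM against 0 counts. The trypsinogen gene PRSS1, which shares sequence with its copies, was higher in QGP-1. KRT20, an intestinal keratin, reached only 1.08, 1.196 and 0.718 CPM in BON-1.

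Epithelial genes were present in both lines. Of 35 keratin, claudin and adhesion genes that passed the filter, 12 were higher in BON-1 and 8 in QGP-1. EPCAM was at 448 ± 11.4 CPM in BON-1 and 696 ± 63.2 in QGP-1 (SD, n = 3), and CDH1, E-cadherin, at 432 ± 43.4 and 597 ± 20.9, neither past the 2-fold threshold. KRT19, a ductal keratin used as a prognostic marker in these tumors, was at 200.4, 168 and 169 CPM in BON-1 and 19.7, 19.04 and 14.9 in QGP-1 (log2 fold change 3.33, SE 0.10, adjusted p = 8.11e-17 by edgeR's quasi-likelihood test). KRT7 was at 116, 117 and 104 against 144, 124 and 116 CPM, with overlap and no call. KRT18 lay at the threshold, with a log2 fold change of 1.02, and of 0.92 without BON-1 replicate 1. CLDN18, a tight junction protein of stomach and lung, was at 32.8, 27.1 and 34.3 CPM in BON-1 and 0 counts in QGP-1, at least 1345-fold higher.

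The cell surface glycoproteins differed in pattern. CEACAM5, the carcinoembryonic antigen, was at 2767, 2477 and 2562 CPM in QGP-1 and 147, 162 and 130.1 in BON-1 (log2 fold change −4.15, SE 0.10, adjusted p = 7.83e-19 by edgeR's quasi-likelihood test), and CEACAM6 at 257 ± 28.5 against 30.1 ± 2.95 CPM (SD, n = 3). CEACAM1, an adhesion molecule of the same family, went the other way, at 124 ± 8.76 CPM in BON-1 and 12.6 ± 1.19 in QGP-1 (SD, n = 3). Among mucins and trefoil factors, 8 of 11 that passed were higher in BON-1 and 1 was higher in QGP-1. MUC17 and MUC5AC were at 3.59, 2.97 and 3.21 CPM and 3.86, 5.05 and 3.32 CPM in BON-1 and under 0.1 CPM in QGP-1, and MUC20 was higher in QGP-1 at 2.02, 2.05 and 2.13 CPM.

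Mesenchymal genes were on the BON-1 side beside the epithelial ones, with 18 of 27 that passed the filter higher in BON-1, 5 higher in QGP-1 and a median log2 fold change of 2.84 against 0.03 over all genes. On the TPM scale the median was 2.49, or 1.38 relative to all genes. ZEB1, a repressor of E-cadherin, was at 36.6, 40.2 and 37.5 CPM in BON-1 and 2.997, 4.896 and 4.84 in QGP-1 (log2 fold change 3.15, SE 0.15, adjusted p = 7.4e-14 by edgeR's quasi-likelihood test), and TIMP3, an inhibitor of metalloproteinases, at 28.3, 27.5 and 31.5 CPM against 3 counts over QGP-1. The cadherins CDH2 and CDH11 were among the 5 on the other side, CDH11 at 13.95, 12.5 and 13.8 CPM in QGP-1 with 2 counts in BON-1. The fibroblast list, whose sums are given above, had 3 of its 4 members that passed the filter higher in BON-1, and its part in this difference was not tested. DCN, PDGFRB, THY1 and POSTN of that list were under 0.1 CPM in both lines. Of 41 integrin, laminin and collagen genes that passed, 29 were higher in BON-1 and 4 in QGP-1, with a median of 2.06. COL4A1 and COL4A2, the chains of basement membrane collagen, were at 10.2, 11.7 and 12.8 and 27.96, 31.1 and 27.9 CPM in BON-1 and under 0.1 CPM in QGP-1. ITGB6, an epithelial integrin chain, and LAMA2, a laminin chain of muscle and nerve, were among the 4 higher in QGP-1, LAMA2 at 35.9, 35.9 and 37.2 CPM against 0 counts.

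**Figure D3:**
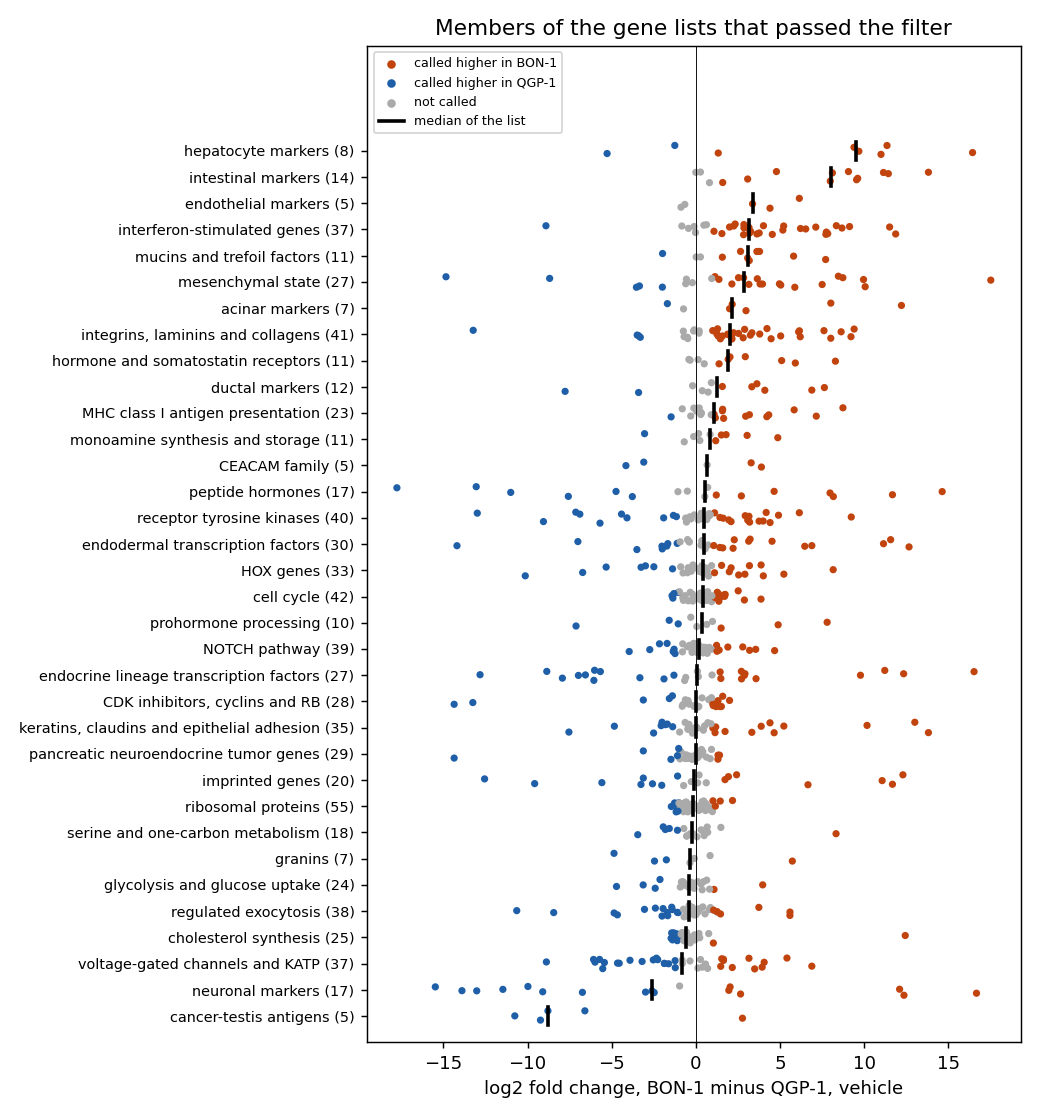
Log2 fold change (BON-1 minus QGP-1, vehicle) of the members of each gene list that passed the filter, for lists with at least 5 such members, whose number stands in brackets. Points are genes, orange where called higher in BON-1, blue where called higher in QGP-1 and grey where not called, the black bar is the median of the list, and the lists are ordered by that median with intestinal and hepatocyte markers at the top and neuronal markers and cancer-testis antigens at the bottom.

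Neuronal genes were more often on the QGP-1 side, with 10 of 17 that passed the filter higher in QGP-1, 6 higher in BON-1 and 1 not called. MAP2, a microtubule protein of dendrites, was at 499, 484 and 508 CPM in QGP-1 and had 2 counts in BON-1, a ratio of 17248-fold (95% Poisson interval 4775 to 142419). DCX, doublecortin of migrating neurons, was at 335, 358 and 317 CPM in QGP-1 and 0.0348, 0.177 and 0.166 in BON-1 (log2 fold change −11.46, SE 0.17, adjusted p = 7.81e-22 by edgeR's quasi-likelihood test). The neurofilament genes were the other way round, since NEFM was at 21.8, 20.5 and 17.7 CPM in BON-1 and 0 counts in QGP-1, like INA.

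Of 38 genes of regulated exocytosis that passed the filter, 14 were higher in QGP-1, 6 were higher in BON-1 and 18 were not called, with a median log2 fold change of −0.41. On the TPM scale the median was 0.74, or −0.37 relative to the 1.11 of all genes. SYT4, a synaptotagmin of dense-core vesicles, was at 366, 345 and 395 CPM in QGP-1 and 0.905, 0.886 and 1.49 in BON-1 (log2 fold change −8.44, SE 0.13, adjusted p = 1.98e-21 by edgeR's quasi-likelihood test). RIMS1, an active zone scaffold, was at 5.596, 5.27 and 7.24 CPM in QGP-1 and 0 counts in BON-1, and RAB27B, a small GTPase of granule docking, at 70.97 ± 3.26 against 2.42 ± 0.428 CPM (SD, n = 3). PTPRN, the granule protein IA-2, and DOC2B, a calcium sensor, were higher in BON-1 at 12.3 ± 1.62 and 9.93 ± 1.097 CPM against 0.248 ± 0.214 and 0.199 ± 0.0984 (SD, n = 3). SYP, synaptophysin, the marker used in pathology, did not pass the test at 37.6, 30.6 and 35.97 CPM in BON-1 and 41.9, 38.2 and 40.1 in QGP-1 (log2 fold change −0.21, SE 0.09, adjusted p = 0.0549 by edgeR's quasi-likelihood test). Among voltage-gated channels and the KATP channel, 18 of 37 were higher in QGP-1 and 11 in BON-1, with a median of −0.81, which on the TPM scale was 0.91, or −0.20 relative to all genes. The BON-1 side was led by the calcium channel genes CACNA1G at 13.1, 14.1 and 10.4 CPM and CACNA1B at 3.52, 4.96 and 5.08 CPM.

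Interferon-stimulated genes lay almost all on one side. Interferons switch these genes on through transcription factors that bind an interferon-stimulated response element in their promoters, and they encode antiviral proteins. Of 37 that passed the filter, 30 were higher in BON-1, 1 was higher in QGP-1 and 6 were not called, a median log2 fold change of 3.19 against 0.03 over all genes. On the TPM scale the median was 2.69, or 1.59 relative to all genes. The promoters below are those of 4 members called higher in BON-1, shown because letters of that element are found in each, and IFIT1 and IFI6 were chosen after their values were seen. They come from RefSeq on GRCh38.p14, run 5′ to 3′ on the strand of the gene and lie within 250 bases upstream of its start site. Capitals mark every match, on either strand, to GAAA followed by any 2 bases and a further GAAA, and adjacent matches may overlap. A match on the other strand reads TTTC, 2 bases, TTTC.
IFIT1 (chr10:89392470-89392569, plus strand): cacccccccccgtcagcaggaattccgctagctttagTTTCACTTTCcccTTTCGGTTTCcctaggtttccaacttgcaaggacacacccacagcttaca
IFI6 (chr1:27672236-27672335, minus strand): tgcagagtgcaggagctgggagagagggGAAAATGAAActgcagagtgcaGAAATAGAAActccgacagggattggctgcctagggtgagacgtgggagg
BST2 (chr19:17405705-17405804, minus strand): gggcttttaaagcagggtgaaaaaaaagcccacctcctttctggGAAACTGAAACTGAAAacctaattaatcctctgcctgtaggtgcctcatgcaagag
IFITM3 (chr11:320861-320960, minus strand): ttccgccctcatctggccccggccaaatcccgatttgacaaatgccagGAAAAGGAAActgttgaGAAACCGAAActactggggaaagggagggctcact
Each of the 4 windows holds 2 matches. The motif was found in the 250 bases before the start site in 18 of the 31 interferon-stimulated genes with a RefSeq promoter, against 839 of all 27305 promoters or 3.07%. It was present in 16 of 25 members called higher in BON-1 and in 2 of 4 that passed the filter and were not. A match is a description of the letters and not a measured binding site.

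BST2, tetherin, which holds budding virus at the membrane, was at 51.6, 63.5 and 55.1 CPM in BON-1 and had 2 counts in QGP-1, a ratio of 3647-fold (95% Poisson interval 1009.6 to 30114). IFITM3, which blocks viral entry, was at 162, 161 and 159 CPM in BON-1 and 0.05304, 0 and 0.0621 in QGP-1 (log2 fold change 11.88, SE 0.18, adjusted p = 1.57e-21 by edgeR's quasi-likelihood test). IFIT1 and IFI6 were at 35.2, 60.7 and 52.9 and 60.4, 69.9 and 50.9 CPM in BON-1 and below 0.5 CPM in each QGP-1 library. IRF7, the factor that amplifies the response, was the exception, at 2.68, 1.46 and 1.32 CPM in QGP-1 and 0 counts in BON-1.

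Antigen presentation by MHC class I, an interferon target, showed the same side with 12 of 23 genes higher in BON-1 and 1 higher in QGP-1. B2M, the light chain, was at 2680.1, 3682 and 3540.1 CPM in BON-1 and 392, 401 and 476 in QGP-1 (log2 fold change 2.96, SE 0.11, adjusted p = 2.62e-15 by edgeR's quasi-likelihood test). HLA-B was at 299.7, 295 and 253 CPM against 14.4, 13.9 and 17.01 (log2 fold change 4.22, SE 0.10, adjusted p = 5.01e-19 by edgeR's quasi-likelihood test). The HLA heavy chain genes share sequence and are polymorphic, so the split between them depends on how the authors' counting treated shared reads. The immunoproteasome subunits PSMB8 and PSMB9 were at 27.4, 34.8 and 33.3 and 13.8, 9.21 and 11.99 CPM in BON-1 and at 0.212 CPM or less in QGP-1, and the peptide transporter TAP1 at 42.2 ± 1.32 against 4.68 ± 1.603 CPM (SD, n = 3). PSMB10, the other immunoproteasome subunit, was higher in QGP-1 at 4.72 ± 0.8699 CPM against 1.696 ± 0.763 (SD, n = 3).

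Among the CDK inhibitors, which hold cells before DNA replication, the CDKN2A region stood out. CDKN2A, which encodes p16 and ARF, had 2722, 3447 and 4137 counts in the QGP-1 libraries and 0 in each BON-1 library, at least 1842-fold higher in QGP-1. CDKN2B, the neighbouring inhibitor p15, had 1600, 1472 and 1628 counts and 0. MTAP, an enzyme of methionine salvage beside them, had 2118, 2374 and 2748 counts and 0. The run of silent genes in BON-1 covered 5 expressed protein-coding genes, KLHL9, MTAP, CDKN2A, CDKN2B and DMRTA1, between 21329665 and 22455740 on chromosome 9 of GRCh38.p14, and the lncRNAs CDKN2B-AS1, inside it, and LINC01239, beyond DMRTA1, also had 0 counts in BON-1. CDKN2B-AS1 overlaps its neighbours on the opposite strand, so its reads are not separable from theirs if counting ignored strand. The nearest expressed protein-coding gene on each side was read in both lines. FOCAD was at 52.9 ± 1.82 CPM in BON-1 and 122 ± 6.68 in QGP-1, and ELAVL2 at 20.2 ± 0.776 and 19.5 ± 0.581 (SD, n = 3). Farther out the lines were not always alike. TUSC1, beyond ELAVL2, averaged 0.173 CPM in BON-1 and 11.8 in QGP-1, and CAAP1, beyond TUSC1, averaged 32.3 and 51.0. FOCAD, DMRTA1, ELAVL2, TUSC1, CAAP1 and the lncRNAs were named after their values were seen. Copy number was not measured here, and whether the region is present in BON-1 was not tested.

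**Figure D4:**
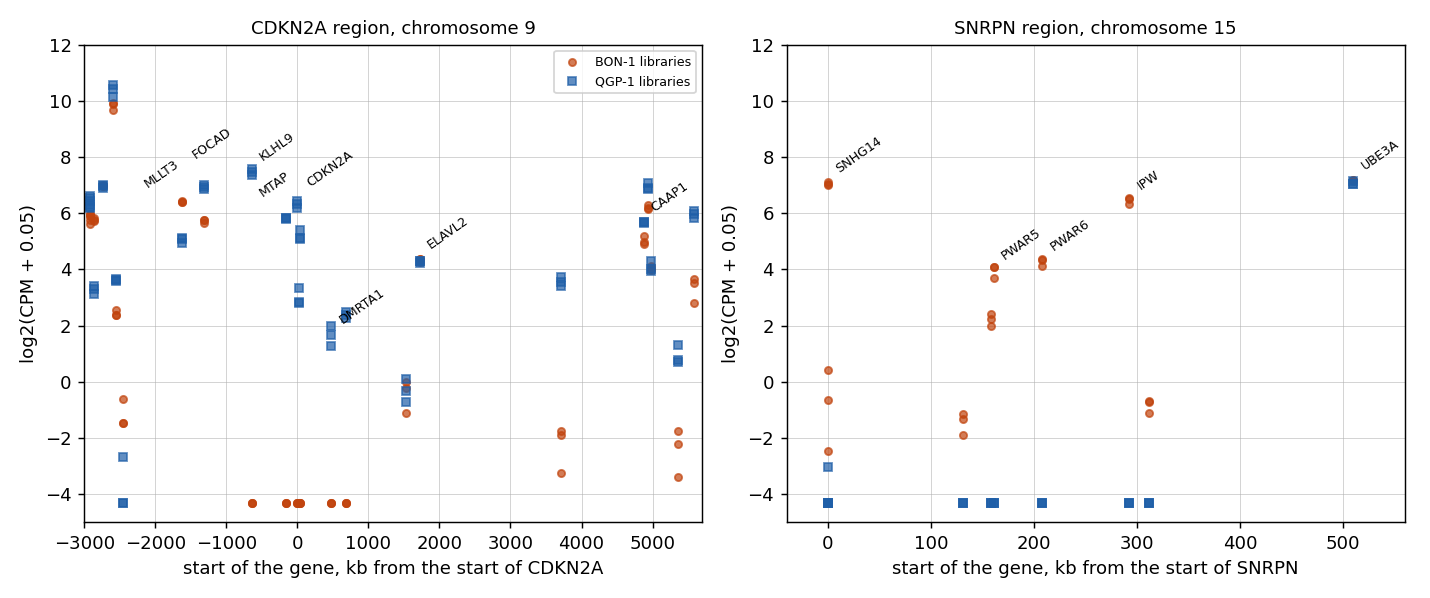
Levels as log2(CPM + 0.05) in the 6 vehicle libraries of genes around CDKN2A (left) and SNRPN (right) against the distance of each gene's start from the start of that gene, in kb, for genes with a mean of at least 0.3 CPM in a line; small nucleolar RNAs are left out. Orange circles are BON-1 and blue squares QGP-1 libraries, and points at about −4.3 are genes with 0 counts, which BON-1 shows from KLHL9 to LINC01239 at left and QGP-1 from SNRPN to PWAR1 at right.

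The remaining cell cycle regulators differed less. CDKN1B, p27, and CDKN2C, p18, were higher in BON-1, CDKN2C at 58.2 ± 2.75 CPM against 19.2 ± 1.83 (SD, n = 3). CDKN1A, p21, lay just under the threshold at 44.8 ± 3.21 against 22.6 ± 0.708 CPM (SD, n = 3). RB1 was at 166 ± 11.5 against 146 ± 1.33 CPM (SD, n = 3) and was not called. Of 42 genes of the cell cycle, 13 were higher in BON-1 and 4 in QGP-1. CENPE, a mitotic kinesin, was at 378, 422 and 398 CPM in BON-1 and 26.3, 29.9 and 25.4 in QGP-1 (log2 fold change 3.88, SE 0.08, adjusted p = 2.7e-19 by edgeR's quasi-likelihood test), and UBE2C, which feeds the anaphase-promoting complex, at 339.9 ± 28.2 against 45.97 ± 4.49 CPM (SD, n = 3). MCM6, part of the replicative helicase, went the other way at 315 ± 11.98 CPM in QGP-1 against 119 ± 6.89 (SD, n = 3).

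The list of pancreatic neuroendocrine tumor genes, which also holds members of the RAS and MYC families, had 29 genes that passed the filter. Of these, 21 were not called, 3 were higher in BON-1 and 5 were higher in QGP-1. The share called was 27.6%, against 40.6% of all genes tested. Without a minimum fold, 25 of the 29 passed the adjusted p, beside 77.5% of all genes. MEN1, the gene of the inherited endocrine tumor syndrome, was at 20.9, 23.9 and 19.5 CPM in BON-1 and 30.3, 28.3 and 20.5 in QGP-1 with overlap. DAXX was at 30.6 ± 1.85 against 42.2 ± 2.89 CPM and ATRX, its partner in histone loading, at 77.6 ± 0.633 against 149.5 ± 3.01 CPM (SD, n = 3), both under 2-fold. ARID1A, a chromatin remodeler, was higher in BON-1 at 397 ± 19.3 against 149.5 ± 17.7 CPM (SD, n = 3). The MYC family differed by member, with MYC at 72.95 ± 7.29 in BON-1 against 113 ± 9.78 CPM in QGP-1 and not called, MYCL at 4.64 ± 1.05 against 40.96 ± 4.07 CPM and higher in QGP-1, and MYCN at 5.35 ± 0.927 against 10.8 ± 0.632 CPM (SD, n = 3). MYCN was called higher in QGP-1 at a log2 fold change of −1.02, which was −0.90 without BON-1 replicate 2, −0.99 without QGP-1 replicate 1 and 0.19 on the TPM scale, where the median over all genes was 1.11.

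Imprinted genes held some of the widest differences, with 7 of 20 that passed the filter higher in BON-1 and 8 higher in QGP-1. PEG10, a retrotransposon-derived gene, was at 4461, 3613 and 3991 CPM in BON-1 and 1.22, 1.86 and 2.3998 in QGP-1 (log2 fold change 11.07, SE 0.17, adjusted p = 2.08e-21 by edgeR's quasi-likelihood test). MEST was at 218, 205 and 226 CPM in BON-1 and 0, 0 and 0.103 in QGP-1. IGF2 and H19, neighbours under a common imprinting control, were on opposite sides, IGF2 in BON-1 as above and H19 at 23.6, 26.03 and 17.1 CPM in QGP-1 against 0.522, 0.31002 and 0.553 in BON-1 (log2 fold change −5.58, SE 0.24, adjusted p = 1.54e-14 by edgeR's quasi-likelihood test). RTL1 was at 91.95, 106 and 74.2 CPM in QGP-1 and 0.139, 0.177 and 0 in BON-1, and NAP1L5 at 23.2, 21.2 and 23.8 CPM in QGP-1 and 0 counts in BON-1.

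In the imprinted SNRPN region of chromosome 15, noncoding RNAs were read in BON-1 and nearly silent in QGP-1. The protein-coding gene SNRPN had 17, 3 and 23 counts in BON-1 and 0 in QGP-1. SNURF, which shares its locus, had 10, 9 and 4 counts in BON-1 and 0 in QGP-1, and neither gene passed the filter on low counts. SNHG14, the long host transcript at chr15:24823608-25419462, was at 138, 131 and 128 CPM in BON-1 and had 3 counts in 1 QGP-1 library, a ratio of 5676-fold (95% Poisson interval 1942 to 27521). IPW, PWAR5 and PWAR6, noncoding RNAs inside it, were at 87.6, 15.5 and 19.3 CPM on average in BON-1 and 0 counts in QGP-1. UBE3A, the ubiquitin ligase gene that borders the region on the opposite strand, was at 146, 140.2 and 145 CPM in BON-1 and 131, 130.5 and 141 in QGP-1, with overlapping values. These genes overlap the host transcript, their reads may be shared with it, and they were named after their values were seen.

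Runs of neighbouring genes at or under 3 counts in one line were searched among 12992 protein-coding genes with at least 1 CPM in a line. At least 3 in a row occurred 6 times, 5 times in BON-1 and once in QGP-1. Besides the CDKN2A region, BON-1 lacked GUCY1A3, GUCY1B3, TDO2 and CTSO on chromosome 4, the last with 3 counts. QGP-1 lacked SAMD3, TMEM200A and SMLR1 on chromosome 6, of which TMEM200A was at 275, 247 and 275 CPM in BON-1. SAMD3 and TMEM200A overlap each other in the annotation.

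The median also differed by chromosome. The median log2 fold change was 0.85 for the 515 genes tested on chromosome 14 and 0.85 for the 422 on chromosome 20, where 43.1% and 41.7% of genes were called higher in BON-1 against 22.1% of all genes. It was −0.69 for the 224 genes of chromosome 18 and −0.68 for the 496 of chromosome X, with 39.7% and 37.7% called higher in QGP-1 against 18.5% of all genes, and −0.54 for the 884 genes of chromosome 17. CHGA, SSTR1 and NKX2-1 lie on chromosome 14 and differed in both directions. The medians in the DOX libraries were 0.83 for chromosome 14, 0.80 for chromosome 20, −0.59 for chromosome 18 and −0.70 for chromosome X.

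**Figure D5:**
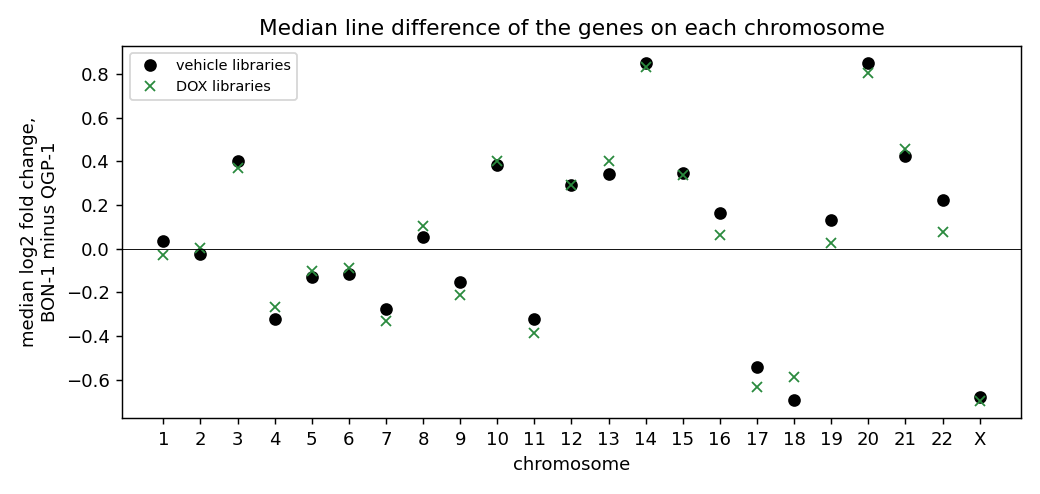
Median log2 fold change (BON-1 minus QGP-1) of the genes tested on each chromosome, in the vehicle libraries (black circles) and in the DOX libraries (green crosses), 6 libraries each. Chromosomes 14 and 20 have the highest medians, 0.85 with vehicle, and chromosomes 18 and X the lowest, −0.69 and −0.68.

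Growth factor receptors and the NOTCH pathway held members on both sides. Of 40 receptor tyrosine kinases that passed the filter, 16 were higher in BON-1 and 10 in QGP-1. EGFR was at 109 ± 3.18 against 165 ± 8.56 CPM and MET at 291 ± 12.9 against 238 ± 2.55 CPM (SD, n = 3), both under 2-fold. RET, a receptor for glial-derived ligands, was at 56.2, 62.8 and 54.04 CPM in BON-1 and 228, 229 and 194 in QGP-1 (log2 fold change −1.91, SE 0.08, adjusted p = 2.13e-14 by edgeR's quasi-likelihood test). ROR2, a WNT receptor, was at 73.1, 64.7 and 66.8 CPM in BON-1 and below 0.3 CPM in QGP-1, and EPHA3, an ephrin receptor, at 31.4, 30.1 and 30.7 CPM in QGP-1 and 0 counts in BON-1. Of 39 NOTCH pathway genes, 24 were not called. NOTCH1 was at 7.59, 7.53 and 7.18 CPM in BON-1 and 1.56, 2.75 and 1.63 in QGP-1 and was called higher in BON-1, NOTCH3 was at 0.592, 0.531 and 1.05 against 4.93, 4.54 and 4.61 CPM and called higher in QGP-1, and NOTCH2 at 10.6, 11.8 and 8.45 against 8.83, 8.47 and 5.77 CPM overlapped. The ligand JAG1 and the target HES1 were at 458 ± 21.1 against 533 ± 21.3 CPM and 63.4 ± 7.61 against 42.6 ± 1.94 CPM (SD, n = 3).

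Of 33 HOX genes that passed, 11 were higher in BON-1 and 7 in QGP-1, with HOXD3 at 20.8, 21.3 and 19.2 CPM in QGP-1 against a single count in BON-1. In cholesterol synthesis 8 of 25 genes were higher in QGP-1 and 2 in BON-1, with a median of −0.56, which on the TPM scale was 0.74, or −0.37 relative to all genes. Of 24 glycolysis genes that passed, 18 were not called, and SLC2A3, a glucose transporter, was higher in QGP-1 at 7.61, 8.71 and 7.903 CPM against 0.244, 0.266 and 0.442. Among 55 ribosomal protein genes 42 were not called, 4 were higher in BON-1 and 9 in QGP-1, for example RPL38 at 289 ± 23.7 CPM in QGP-1 against 105 ± 5.99 (SD, n = 3). Of 30 cancer-testis antigens only 5 passed the filter, with PRAME at 83.8, 81.5 and 79.5 CPM in BON-1 and 10.8, 13.8 and 11.2 in QGP-1, and MAGEA3, which shares reads with close copies, at 7.13, 6.75 and 5.77 CPM in QGP-1 and 0 counts in BON-1.

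The line difference was then measured in the 6 DOX libraries, which the vehicle comparison does not use. Of 15336 genes tested in both, 2791 of 3276 genes called higher in BON-1 with vehicle were called so with DOX, which is 85.2%, and 2392 of 2821 genes called higher in QGP-1, which is 84.8%. The background of calls in the DOX libraries was 22.2% higher in BON-1 and 19.2% higher in QGP-1 of 15589 genes tested. Only 12 genes were called in opposite directions. Over the 16598 genes of a fit to all 12 libraries, 679 or 4.09% had a line difference that changed with DOX by at least 2-fold at an adjusted p below 0.05 (interaction term, edgeR's quasi-likelihood test). SCG5, PCSK2, SSTR1, CEACAM5 and INSM1 had log2 fold changes of −5.25, −8.15, 6.13, −4.02 and 2.52 in the DOX libraries, each of the same sign as with vehicle.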

How the data were processed

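The authors prepared stranded mRNA libraries, and the submitters' processing notes name STAR and GRCh38. For each line they deposited raw counts per gene, not normalized, and TPM values, scaled within each library. The strand setting of the counting is not given in the sources used here. Both count tables held the same 28008 genes and were joined by symbol.

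The 6 vehicle libraries were fitted with edgeR 4.0.16 in R 4.3.3 (default filter on low counts, TMM, quasi-likelihood test, Benjamini-Hochberg over the 15835 genes tested). Genes were called at an adjusted p below 0.05 and an absolute log2 fold change of at least 1. CPM are counts scaled to the TMM library size, and the SE is the fold change over the square root of F. With 3 against 3 libraries an exact two-sided permutation test cannot go below 0.1, so p-values rest on the spread estimated over all genes. A gene with 0 counts in a line was given as a bound against 3 counts over its libraries, and one with 1 to 3 counts as a ratio with a 95% Poisson interval, which covers counting error only. The DOX libraries were fitted likewise, and the interaction in 1 fit of 12.

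The members and the 36 gene lists were chosen with earlier results of these data known, so no list was tested. Genes are named if they are on a set list of identity genes, among the 10 leading each way (called, mean log2 CPM 3 or more, lines not overlapping), or up to 2 called members each way per list. Markers at the floor, HLA-B, TAP1, IFI6, IFIT1, PEG10, DCX, SERPINA1, ZEB1, RAB27B and genes of chromosomal runs were added after their values were seen. Some genes the rule names are not reported here. Positions are RefSeq's on GRCh38.p14, and 26802 genes matched. Alternatives were DESeq2 1.42.0, other normalizations, filters and fold minimums, a replicate block, limma 3.58.1 on log2(TPM + 1), and each library left out. The code was tested on simulated counts drawn from the BON-1 profile, with 100 genes changed 2-fold and 100 changed 4-fold. It recovered 80 of the 97 and 92 of the 94 that were tested. Of 187 calls at an adjusted p below 0.05, 15 were false, 3 of them past the 2-fold threshold. Far fewer genes differed there than between the lines, so the simulation does not give the error rate of the data.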

Additional observations from a re-analysis of the deposited data

Results flagged for a closer look

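Some of the named genes had a line difference that was not the same in the DOX libraries, by the interaction term of edgeR's quasi-likelihood test over 16598 genes with 3 libraries in each of 4 groups. The changes below are the log2 difference between the lines with DOX minus that with vehicle, so a negative value means that BON-1 was lower relative to QGP-1 with DOX. CPM in this section are scaled over all 12 libraries, so the vehicle values differ slightly from those given above. DOX turns on the hairpin against MUC1, and the effect of DOX itself cannot be told apart from that of the hairpin.

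The log2 difference changed sign for TPH1, DDC and SSTR2. TPH1 stood at 1718 ± 91.2 CPM in BON-1 and 775 ± 41.03 in QGP-1 with vehicle, and at 379.7 ± 24.9 and 587 ± 54.8 with DOX (SD, n = 3), a change of −1.78 (adjusted p = 3.15e-10 by edgeR). DDC changed by −1.73, from a log2 difference of 0.85 to −0.91, and SSTR2 by −2.96, from 1.92 to −1.06. For CHGA, SST, SSTR5 and IGF2 its sign was the same with vehicle and with DOX. The change was −1.60 for CHGA, −2.62 for SST, −1.51 for SSTR5 and −1.75 for IGF2.

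Of the interferon-stimulated and MHC class I genes named, IFI6 changed by −4.62, PSMB9 by −2.91 and HLA-B by −1.07. HLA-B was at 277 ± 29.1 CPM in BON-1 with vehicle and 105 ± 13.3 with DOX, and at 15.2 ± 1.55 and 12.1 ± 2.28 in QGP-1 (SD, n = 3). MYCN changed by −2.42 and H19 by −2.47, while EHF changed by 1.39, ITGB6 by 1.67, KRT19 by 1.00 and PRSS1 by 1.10. VIM, FEV and MUC5AC, with values of −4.76, −5.56 and −3.75, had 0 to 2 counts over the QGP-1 vehicle libraries, so that the size of their change depends on the prior count of the fit.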

How the results depend on the processing

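The 6428 calls (3498 higher in BON-1 and 2930 in QGP-1) became 4046 (2206 and 1840) with at least 10 counts in every library, 12267 (6245 and 6022) with no minimum fold and 3394 (1925 and 1469) at a log2 fold change of at least 2, settings that by construction let fewer or more genes pass. Limma on log2(TPM + 1) called 6566 and 368, and 1461 and 647 (2108 in all) with fold changes centred on their median, which was chosen after seeing the data. Other normalizations, DESeq2, no filter, glmTreat and all 12 libraries in 1 fit stayed within 1.5 times. With at least 10 counts in every library, the medians of 5 of the 36 lists changed sign and the largest shift was 11.56. That setting leaves out genes at or near 0 counts in a line. Leaving out each library gave 6510 to 6694 calls, 3432 to 3625 higher in BON-1 and 2916 to 3166 in QGP-1, and log2 fold changes of MUC1 from 1.48 to 1.68. Deviations of same-numbered libraries correlated at only 0.079, 0.015 and 0.034, although every library except QGP-1 replicate 2 correlated best with its own number. With 3 libraries per line these values cannot decide whether replicate numbers pair the lines, and the main fit did not use them as pairs. A replicate block gave 6359 calls, 3451 and 2908, and of the genes named it changed the call of TAT alone (adjusted p = 0.0555 by edgeR). On the TPM scale the sign turned for CPE (1.04), FOCAD (0.13), JAG1 (1.10), KRT7 (1.13), MYCN (0.19), SCG2 (1.26) and SYP (1.02), and in no other named gene with a TPM value, on a scale that moved all genes up by a median of 1.11. Of these genes KRT7 and SCG2 lay above that median and the other 5 lay below it, so relative to all genes the direction of those 5 did not turn. Among the other settings, calls near the threshold changed for CDKN1A, KRT18, MYCN, PAM and TAT. Without single libraries KRT18 fell under the threshold (0.92 without BON-1 replicate 1, 1.00 and 0.97 without QGP-1 replicates 2 and 3), and TAT was not called without BON-1 replicate 2 or 3 or QGP-1 replicate 2 or 3. CDKN1A passed at 1.01 without BON-1 replicate 3 or QGP-1 replicate 1, and PAM at 1.02 without BON-1 replicate 2, 1.00 without QGP-1 replicate 1 and 1.01 without QGP-1 replicate 3. The causes were not tested. QGP-1 was sequenced more deeply, so that 0 counts are a looser limit in BON-1, and copy number, strand of counting and protein were not measured.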
